A study of Bos taurus with 6 samples.

Results

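The SLC25 carriers are the family of transporters that move nucleotides, phosphate, amino acids, carboxylates and cofactors across the inner mitochondrial membrane, and their transcripts were examined here in cattle oocytes that had reached metaphase II in culture, where meiosis pauses until fertilization. A gene was taken as a member where its symbol began with SLC25A followed by a digit, which 43 of the 17325 genes in the files did. The 6 libraries comprise 3 labelled siMTFP1, from oocytes in an MTFP1 knockdown group, and 3 labelled NC, from the negative control group. All oocytes were matured in vitro; the knockdown reagent, its dose and timing, the number of oocytes per library and the age of the donors are not given in the sources used here. The MTFP1 protein sits in the inner mitochondrial membrane and takes part in fission, and the design asks how the transcriptome differs between these groups.

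Most carriers work as exchangers, and each swaps a particular substrate on one side of the membrane for another on the opposite side. The adenine nucleotide translocases export ATP made in the matrix and import ADP, while the phosphate carrier brings in the phosphate that ATP synthase also needs. In mouse heart, MTFP1 has been linked to proton leak through the adenine nucleotide translocases, which makes these members of particular interest beside a knockdown of MTFP1. The growing and mature oocyte relies on mitochondrial ATP and takes up pyruvate supplied by its cumulus cells.

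Values are FPKM, which scale fragments by the length of a transcript and by the mapped fragments of a library, so that levels of different genes can be set side by side. Summed FPKM per library lay between 784366 and 892790.4, and 15120 to 15533 genes per library lay above 0. Read depth could not be derived from FPKM and is unknown. The 10 oocyte markers, among them GDF9, BMP15 and BTG4, were present in every library, with a summed level of 34133 to 36668 FPKM in libraries labelled siMTFP1 and 36432 to 37368 FPKM in those labelled NC. The transcript targeted by the knockdown, with a mean of 0.548 FPKM over the 6 libraries, was not lower in the libraries labelled siMTFP1. At such a level a few fragments can set the value. MTFP1 (NCBI gene ID 525071) lay at 0.43, 0.58 and 1.15 FPKM in libraries 1, 2 and 3 labelled siMTFP1, against 0.53, 0.55 and 0.05 FPKM in libraries 1, 2 and 3 labelled NC. The difference was 0.32 on the log2(FPKM + 1) scale (two-sided exact permutation p = 0.4; with 3 against 3 libraries p cannot fall below 0.1), and it was 0.14 without NC 3, 0.15 without siMTFP1 3 and 0.96 with a pseudocount of 0.1. Libraries are therefore named by their labels and each direction refers to those.

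The oocytes held a few carriers at high levels and most others at moderate or low ones. Of the 43 members, 5 had a mean of at least 100 FPKM over the 6 libraries, 17 had a mean from 10 to below 100 and 9 from 1 to below 10, which left 12 below 1 FPKM. A mean of at least 1 FPKM was reached by 72.1% of the carriers and by 56.2% of all genes in the files. The summed level of the family was 1159, 1055 and 1119 FPKM in the libraries labelled siMTFP1, against 1109, 1224 and 1058 FPKM in those labelled NC. This sum was 0.133% ± 0.0129 of the library's FPKM in libraries labelled siMTFP1 and 0.134% ± 0.0113 in those labelled NC (SD, n = 3 each). The ranges of both measures overlapped between the groups.

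**Figure D1:**
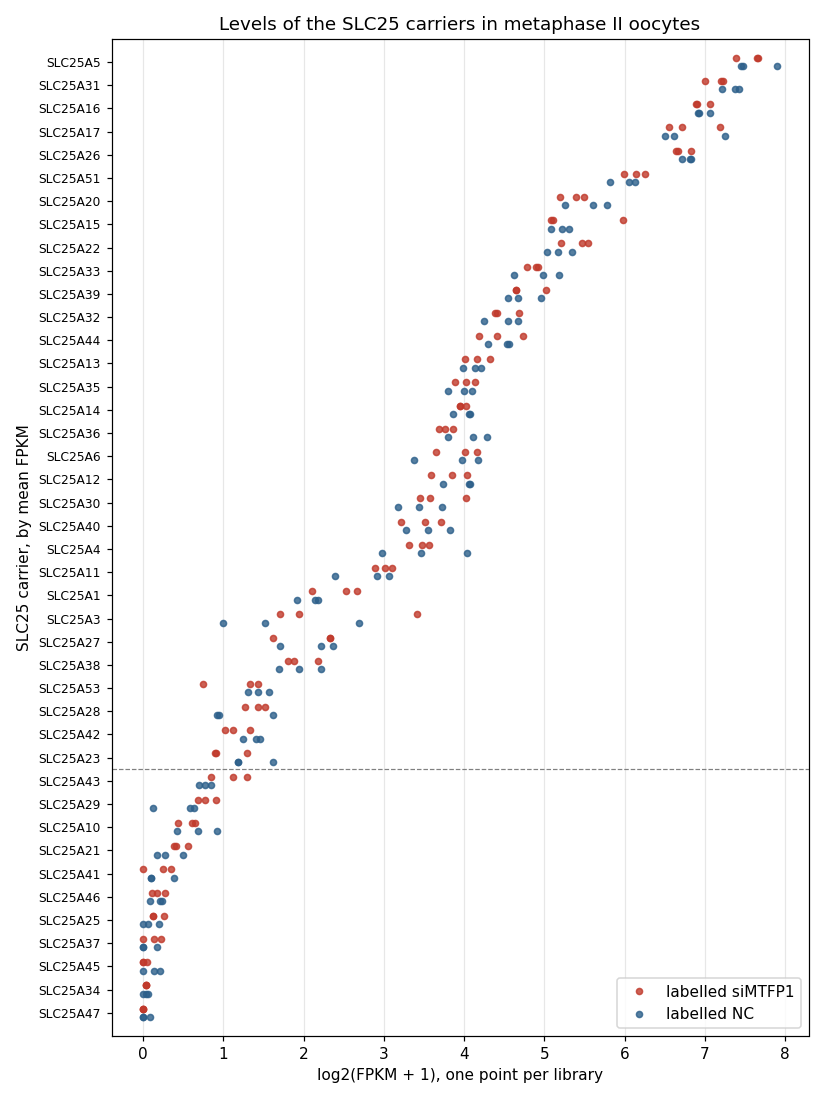
Levels of 42 SLC25 carriers on the log2(FPKM + 1) scale, ordered from the highest mean at the top, with 1 point per library, red for libraries labelled siMTFP1 (upper of each pair of rows) and blue for those labelled NC. The dashed line separates the 31 carriers with a mean of at least 1 FPKM, which were tested, from 11 below it; the 5 carriers at the top, from SLC25A5 to SLC25A26, each averaged at least 100 FPKM.

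The 5 most abundant carriers were SLC25A5, SLC25A31, SLC25A16, SLC25A17 and SLC25A26, which together gave 58.2% to 64.0% of the family's summed FPKM in a library. Their ranges over the 6 libraries overlapped from each to the next in the order, but SLC25A5 exceeded SLC25A31 and SLC25A31 exceeded SLC25A16 in 6 of 6 libraries. SLC25A16 exceeded SLC25A17 in 4 of 6 libraries and SLC25A17 exceeded SLC25A26 in 3 of 6, so these neighbours had no stable order. Below them lay a gap. The lowest library value of SLC25A26 was 98.8 FPKM, and the highest value of SLC25A51, sixth in the order, was 75.3 FPKM. The 10 most abundant carriers ranged from SLC25A5, at percentile 96.1 of all genes by mean FPKM, to SLC25A33, at percentile 84.9.

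Among the adenine nucleotide translocases, the oocyte held SLC25A5 and SLC25A31 at levels far above SLC25A6 and SLC25A4. SLC25A5 encodes the translocase typical of dividing cells (ANT2), and it had 200.4, 167 and 201 FPKM in libraries 1, 2 and 3 labelled siMTFP1, against 177, 237 and 173 FPKM in libraries 1, 2 and 3 labelled NC. The highest value was that of NC 2, and the groups overlapped. SLC25A31 encodes the germ cell translocase (ANT4), known in mouse for its role in meiosis of the male germ line. It had 148, 127 and 146 FPKM in libraries labelled siMTFP1, against 148, 165 and 171 FPKM in those labelled NC. Libraries siMTFP1 2 and siMTFP1 3 lay below every library labelled NC, while siMTFP1 1 lay just above NC 1.

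SLC25A6, the broadly expressed translocase ANT3, had 11.5, 16.9 and 15.2 FPKM in the libraries labelled siMTFP1, against 17.0, 14.6 and 9.41 FPKM in those labelled NC. SLC25A4, the translocase of heart and skeletal muscle (ANT1), had 10.1, 10.8 and 8.91 FPKM in libraries labelled siMTFP1, against 15.4, 6.83 and 10.1 FPKM in those labelled NC. Both were low beside SLC25A5 in every library, and the libraries labelled NC spanned a wider range than those labelled siMTFP1 for each. The translocases have similar coding sequences, and the sources used here do not say how shared reads were divided, so small differences between their levels are uncertain.

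Expressed as shares of the summed FPKM of the 4 translocases, SLC25A5 took 53.4% ± 1.29 in libraries labelled siMTFP1 and 51.1% ± 4.31 in those labelled NC (SD, n = 3 each). SLC25A31 took 39.6% ± 0.373 in libraries labelled siMTFP1 and 42.4% ± 4.08 in those labelled NC. The level of SLC25A31 as a ratio to that of SLC25A5 was 0.740, 0.760 and 0.726 in libraries labelled siMTFP1, against 0.833, 0.697 and 0.984 in those labelled NC. The 3 libraries labelled siMTFP1 lay inside the range of those labelled NC, and NC 3 had the highest ratio. SLC25A6 took 4.16% ± 1.08 in libraries labelled siMTFP1 and 3.60% ± 1.09 in those labelled NC, and SLC25A4 took 2.84% ± 0.488 in libraries labelled siMTFP1 and 2.90% ± 1.36 in those labelled NC. Together the 4 translocases made up 31.8% ± 1.32 of the family's summed FPKM in libraries labelled siMTFP1 and 33.7% ± 1.33 in those labelled NC.

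None of the 4 translocases passed a test between the groups. Their log2(FPKM + 1) differences, siMTFP1 minus NC, were -0.04 for SLC25A5 (95% interval -0.40 to 0.32), -0.20 for SLC25A31 (-0.49 to 0.09), 0.10 for SLC25A6 (-0.43 to 0.63) and -0.04 for SLC25A4 (-0.62 to 0.54). By limma the Benjamini-Hochberg adjusted p over all 9730 tested genes was 0.983 for SLC25A5, 0.864 for SLC25A31, 0.966 for SLC25A6 and 0.987 for SLC25A4. The sign turned for SLC25A4 without NC 1 (0.23) or siMTFP1 3 (0.029), and for SLC25A5 without NC 2 (0.11) or siMTFP1 2 (0.049). For SLC25A6 it turned without NC 3 (-0.13) or siMTFP1 2 (-0.0085). The difference of SLC25A31 stayed below 0 when any 1 library was left out, between -0.26 and -0.13.

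**Figure D2:**
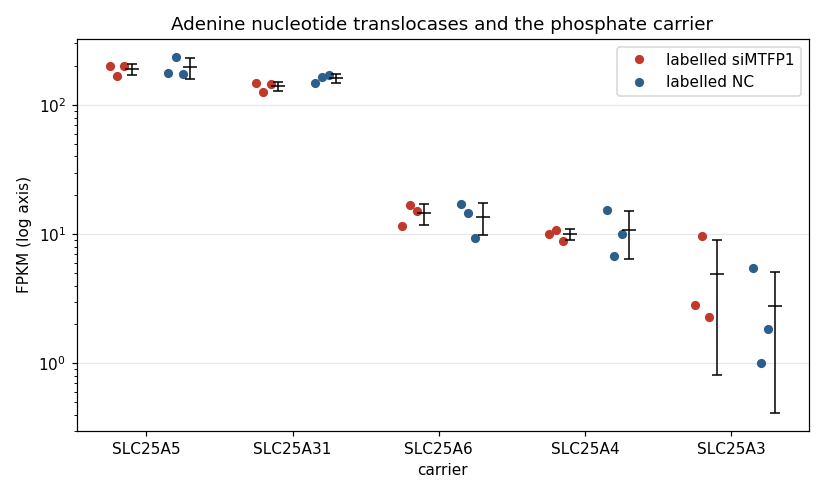
FPKM on a log axis of the 4 adenine nucleotide translocases and the phosphate carrier SLC25A3, with 1 coloured point per library, red for libraries labelled siMTFP1 (left of each pair) and blue for those labelled NC, and a black mark with error bars for the mean ± SD (n = 3). SLC25A5 and SLC25A31 lay above 100 FPKM in every library, SLC25A6 and SLC25A4 between 6.83 and 17.0 FPKM, and SLC25A3 between 1.00 and 9.62 FPKM.

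The phosphate carrier SLC25A3, the partner of the translocases in supplying ATP synthase, was the carrier that varied most among those tested. It had 2.83, 9.62 and 2.27 FPKM in libraries 1, 2 and 3 labelled siMTFP1, against 5.44, 1.00 and 1.86 FPKM in libraries 1, 2 and 3 labelled NC. Library siMTFP1 2 was highest and NC 1 next, and the groups overlapped. The highest library value was 9.62 times the lowest. The summed FPKM of the translocases was 131, 33.4 and 163 times that of SLC25A3 in libraries labelled siMTFP1, and 65.6, 424 and 195 times in those labelled NC.

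Its log2 difference of 0.62 was the largest in size among the 31 tested carriers, with a 95% interval from -0.56 to 1.80 (limma adjusted p = 0.892 over all tested genes). The difference was 0.09 without siMTFP1 2 and 1.09 without NC 1. SMDT1, a subunit of the mitochondrial calcium uniporter from the list of partner genes, had 7.30, 15.4 and 6.30 FPKM in libraries labelled siMTFP1, against 10.1, 2.99 and 3.38 FPKM in those labelled NC. This is the same order of the 6 libraries as for SLC25A3, which 29 tested genes other than SLC25A3 had, 0.298% of the 9730 tested. The match was noticed after the values were seen. The 12 markers of cumulus and granulosa cells summed to 138, 137 and 130 FPKM in libraries labelled siMTFP1, against 145, 129 and 125 FPKM in those labelled NC. Most of that sum came from STAR, HAS2 and VCAN, so the sum says little of its other members. Whether the STAR, HAS2 and VCAN transcripts came from oocytes or from cumulus cells was not tested. The granulosa marker FSHR was at 0 in all libraries but NC 3, at 0.02 FPKM, AMH was at 0 in 4 of 6 libraries, and FOXL2 did not exceed 0.08 FPKM. HSD3B1 had 0.30, 0.51 and 3.53 FPKM in libraries labelled siMTFP1, against 7.51, 0.43 and 0.31 FPKM in those labelled NC, and TNFAIP6 had 1.06, 2.84 and 1.16 FPKM in libraries labelled siMTFP1, against 5.31, 1.51 and 17.1 FPKM in those labelled NC. The highest library thus differed among the markers. HSD3B1 was highest in NC 1, where SLC25A3 was second highest, and TNFAIP6 was highest in NC 3. The marker CD44, at 2.38 FPKM, and FOXL2, at 0.08 FPKM, were highest in siMTFP1 2, where SLC25A3 was also highest. In that same library PTX3, at 1.44 FPKM, and CYP19A1, at 0.10 FPKM, were at their lowest. The part of RNA from other cells in the SLC25A3 values was not tested. In bulk libraries, fewer cells of a type and less RNA per cell cannot be told apart.

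**Figure D3:**
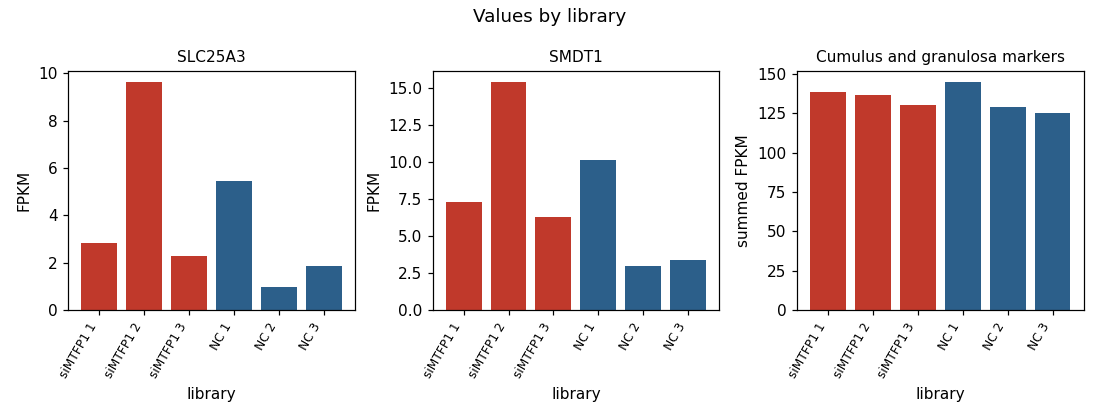
FPKM of the phosphate carrier SLC25A3 (left), FPKM of the calcium uniporter subunit SMDT1 (middle) and summed FPKM of 12 cumulus and granulosa markers (right) in each library, red for libraries labelled siMTFP1 and blue for those labelled NC. SLC25A3 and SMDT1 were highest in siMTFP1 2 and next highest in NC 1, and the marker sum lay between 125 and 145 FPKM.

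The measured carriers of ATP-Mg and phosphate, which adjust the adenine nucleotide content of the matrix, were near the limit of the expression filter or below it. The class list, which includes SLC25A3, holds 5 symbols, of which 4 were among the 43 members, so the class is not covered in full. SLC25A23 had 0.88, 1.45 and 0.86 FPKM in libraries labelled siMTFP1, against 1.26, 2.06 and 1.27 FPKM in those labelled NC, with a log2 difference of -0.29 (limma adjusted p = 0.875), in a range from -0.42 without siMTFP1 2 to -0.15 without NC 2. SLC25A25 and SLC25A41 stayed at or below 0.31 FPKM in every library. SLC25A23 and SLC25A41 lie next to each other in the RefSeq annotation, with 0 protein-coding genes between them.

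Carriers of other nucleotides and cofactors formed the largest share of the family, 42.4% of its summed mean FPKM, against 32.8% for the translocases. The 9 members of this class summed to 473 ± 16.0 FPKM in libraries labelled siMTFP1 and 478 ± 34.8 FPKM in those labelled NC (SD, n = 3 each). SLC25A16, a carrier linked to coenzyme A, averaged 123 ± 8.98 FPKM in libraries labelled siMTFP1 and 124 ± 7.46 FPKM in those labelled NC. SLC25A26, which imports the methyl donor S-adenosylmethionine, averaged 104 ± 7.42 FPKM in libraries labelled siMTFP1 and 109 ± 4.74 FPKM in those labelled NC. These were steady transcripts. The highest library value was 1.14 times the lowest for each, the smallest such ratios among the 22 carriers with a mean of at least 10 FPKM. The median ratio was 1.44 for those 22 carriers and 1.48 over all genes with a mean of at least 10 FPKM and no value of 0.

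SLC25A17 encodes a peroxisomal member of the family, which carries coenzyme A and related cofactors. It had 93.0, 104 and 145 FPKM in libraries labelled siMTFP1, against 96.6, 151 and 89.4 FPKM in those labelled NC. Library siMTFP1 3 and library NC 2 stood above the remaining 4, 1 in each group. SLC25A51, which imports NAD into the matrix, averaged 69.1 ± 6.31 FPKM in libraries labelled siMTFP1 and 63.1 ± 7.05 FPKM in those labelled NC. Reads of SLC25A51 and of DCAF10, and likewise of SLC25A26 and LRIG1, cannot be told apart with certainty where these genes overlap in the RefSeq annotation, because the sources used here do not say whether counting used strand.

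The pyrimidine nucleotide carriers SLC25A33 and SLC25A36 were both present at moderate levels. SLC25A36 had 11.8, 12.6 and 13.5 FPKM in libraries labelled siMTFP1, against 16.2, 12.9 and 18.5 FPKM in those labelled NC. Only siMTFP1 3 and NC 2 overlapped, and the log2 difference was -0.29 (95% interval -0.68 to 0.09, limma adjusted p = 0.829). SLC25A33 averaged 28.1 ± 1.51 FPKM in libraries labelled siMTFP1 and 29.9 ± 5.87 FPKM in those labelled NC. SLC25A32, a carrier of folate and FAD, ranged from 18.0 to 24.6 FPKM over the 6 libraries. SLC25A42, a further coenzyme A carrier, averaged 1.24 ± 0.247 FPKM in libraries labelled siMTFP1 and 1.59 ± 0.200 FPKM in those labelled NC.

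Of the 7 amino acid carriers, 5 averaged at least 10 FPKM. SLC25A22, a glutamate carrier, had 45.7, 35.8 and 43.1 FPKM in libraries labelled siMTFP1, against 31.6, 39.5 and 34.9 FPKM in those labelled NC. The groups overlapped through siMTFP1 2 and NC 2, and the log2 difference was 0.23 (95% interval -0.12 to 0.58, limma adjusted p = 0.875). SLC25A15, which exchanges ornithine and citrulline for the urea cycle, had 61.9, 32.8 and 33.4 FPKM in libraries labelled siMTFP1, against 38.4, 36.2 and 32.8 FPKM in those labelled NC. Its mean in libraries labelled siMTFP1 rested on siMTFP1 1, without which the log2 difference turned from 0.19 to -0.11. SLC25A44, a branched-chain amino acid carrier, ranged from 17.1 to 25.6 FPKM over the 6 libraries.

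The aspartate/glutamate carriers of the malate-aspartate shuttle were at similar levels. SLC25A13 averaged 17.0 ± 1.94 FPKM in libraries labelled siMTFP1 and 16.3 ± 1.36 FPKM in those labelled NC, and SLC25A12 averaged 13.3 ± 2.23 FPKM in libraries labelled siMTFP1 and 14.6 ± 1.95 FPKM in those labelled NC. SLC25A13 was above SLC25A12 in 6 of 6 libraries. Their partner in the shuttle, the oxoglutarate carrier SLC25A11, had 6.39, 7.09 and 7.59 FPKM in libraries labelled siMTFP1, against 6.53, 7.35 and 4.26 FPKM in those labelled NC. The glycine carrier SLC25A38, needed for haem synthesis, ranged from 2.24 to 3.66 FPKM.

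Among carriers of carboxylates and acylcarnitines, SLC25A20, which brings acylcarnitines in for fatty acid oxidation, was the most abundant. It had 44.1, 41.1 and 35.5 FPKM in libraries labelled siMTFP1, against 53.7, 47.6 and 37.1 FPKM in those labelled NC. The groups overlapped, and the log2 difference was -0.18 (95% interval -0.57 to 0.21, limma adjusted p = 0.902), in a range from -0.33 without NC 3 to -0.066 without NC 1. SLC25A1, the citrate carrier that supplies acetyl units for lipid synthesis, had 3.29, 5.36 and 4.75 FPKM in libraries labelled siMTFP1, against 3.52, 2.78 and 3.41 FPKM in those labelled NC. Libraries siMTFP1 2 and siMTFP1 3 lay above every library labelled NC, and siMTFP1 1 lay within the range of those labelled NC.

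SLC25A1 had the smallest p of the family, with a log2 difference of 0.35 (SE 0.19, 95% interval -0.09 to 0.79, limma adjusted p = 0.824 over all tested genes). Without siMTFP1 1 the difference was 0.52 (limma adjusted p = 0.548). SLC25A10 and SLC25A21, carriers of dicarboxylates and oxodicarboxylates, stayed below 1 FPKM in every library.

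The glutathione carriers were more abundant than the iron carriers in every library. The glutathione carriers SLC25A39 and SLC25A40 averaged 26.5 ± 4.17 and 10.3 ± 1.95 FPKM in libraries labelled siMTFP1, and 25.6 ± 4.00 and 10.8 ± 2.22 FPKM in those labelled NC. The iron carrier SLC25A28 (mitoferrin 2) had 1.40, 1.86 and 1.70 FPKM in libraries labelled siMTFP1, against 2.06, 0.89 and 0.93 FPKM in those labelled NC. Without NC 1 its log2 difference of 0.24 became 0.47 (limma adjusted p = 0.695). SLC25A37 (mitoferrin 1, the erythroid iron carrier) was listed at 0 in 3 of the 6 libraries and did not exceed 0.17 FPKM. A further gene whose symbol in the files carries a prefix before SLC25A37 fell outside the member rule, and it was listed at 0 in all libraries but NC 3, at 0.19 FPKM. This further gene overlaps SLC25A37 in the RefSeq annotation, so reads of the pair cannot be told apart with certainty.

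The uncoupling protein-like carriers and the carriers with no class in the lists covered a wide range. SLC25A14 averaged 14.7 ± 0.510 FPKM in libraries labelled siMTFP1 and 15.0 ± 1.31 FPKM in those labelled NC. SLC25A30 had 15.3, 10.9 and 9.89 FPKM in libraries labelled siMTFP1, against 9.82, 12.2 and 8.04 FPKM in those labelled NC, with siMTFP1 1 highest. SLC25A27 ranged from 2.07 to 4.17 FPKM over the 6 libraries. SLC25A35 averaged 15.2 ± 1.39 FPKM in libraries labelled siMTFP1 and 14.7 ± 1.61 FPKM in those labelled NC, although it overlaps RANGRF in the annotation. SLC25A53 averaged 1.30 ± 0.542 FPKM in libraries labelled siMTFP1 and 1.71 ± 0.245 FPKM in those labelled NC, with siMTFP1 1 lowest at 0.68 FPKM; it overlaps ZCCHC18.

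The 12 carriers below the expression filter had means from 0.0100 to 0.923 FPKM and no library value above 1.46 FPKM. The 3 just inside the filter were SLC25A23, SLC25A42 and SLC25A28, at 1.30, 1.41 and 1.47 FPKM over all libraries, and the 3 just outside were SLC25A43, SLC25A29 and SLC25A10, at 0.923, 0.557 and 0.543 FPKM. SLC25A43 had 1.17, 1.46 and 0.80 FPKM in libraries labelled siMTFP1, against 0.62, 0.79 and 0.70 FPKM in those labelled NC. SLC25A29, a carrier of basic amino acids, had 0.61, 0.88 and 0.71 FPKM in libraries labelled siMTFP1, against 0.55, 0.50 and 0.09 FPKM in those labelled NC. The groups did not overlap for SLC25A43 and SLC25A29, at levels where a few fragments can set the value. Groups without overlap were found for 11.0% of the tested genes, and no such share was taken for genes below the filter.

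Other untested carriers were SLC25A21, SLC25A41, SLC25A46, SLC25A25, SLC25A37, SLC25A45, SLC25A34, SLC25A47 and SLC25A10. SLC25A46, an outer membrane protein linked to mitochondrial fission and lipid transfer, lay between 0.06 and 0.21 FPKM. SLC25A34 and SLC25A45 reached at most 0.04 and 0.16 FPKM, and SLC25A47, a carrier known from liver, was listed at 0 in all libraries but NC 3, at 0.06 FPKM. SLC25A43 lies next to SLC25A5, the most abundant carrier, and SLC25A29 next to SLC25A47, with 0 protein-coding genes between the members of each pair in the RefSeq annotation.

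Across the family, no tested carrier showed a difference between the groups that passed the test against the spread between replicates. By limma, 0 of the 31 tested carriers passed the Benjamini-Hochberg adjusted threshold of 0.05 over 9730 genes, where 0% of all tested genes passed. At an unadjusted p under 0.05 there were also 0 carriers, and the background was 6.53% of tested genes, with 3.86% higher and 2.66% lower in libraries labelled siMTFP1. The groups were without overlap in 0 of the 31 tested carriers and in 11.0% of all tested genes, 5.97% higher and 5.05% lower in libraries labelled siMTFP1.

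Of the 31 carriers, 13 had a higher and 18 a lower mean log2 level in libraries labelled siMTFP1. The share with a higher level was 41.9% of the carriers and 54.2% of all tested genes. The median log2 difference was -0.01 for the carriers and 0.02 for all tested genes. The median size of the difference, regardless of sign, was 0.10 for the carriers and 0.14 for all tested genes. The median SD within groups was 0.22 on the log2(FPKM + 1) scale for the carriers and likewise 0.22 for all tested genes. A size of at least 0.5 was reached by 1 carrier, SLC25A3, which is 3.23% of those tested, and by 6.71% of all tested genes. For 30 of the 31 carriers the 95% interval of the difference lay within -1 to 1, the extreme bounds being -0.75 and 0.79. A change of 1 on the log2(FPKM + 1) scale thus lay outside the interval for each of them. For carriers at low levels a 2-fold change in FPKM is smaller than 1 on this scale, and it can lie inside the interval. A p above the threshold does not show that the levels were equal.

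**Figure D4:**
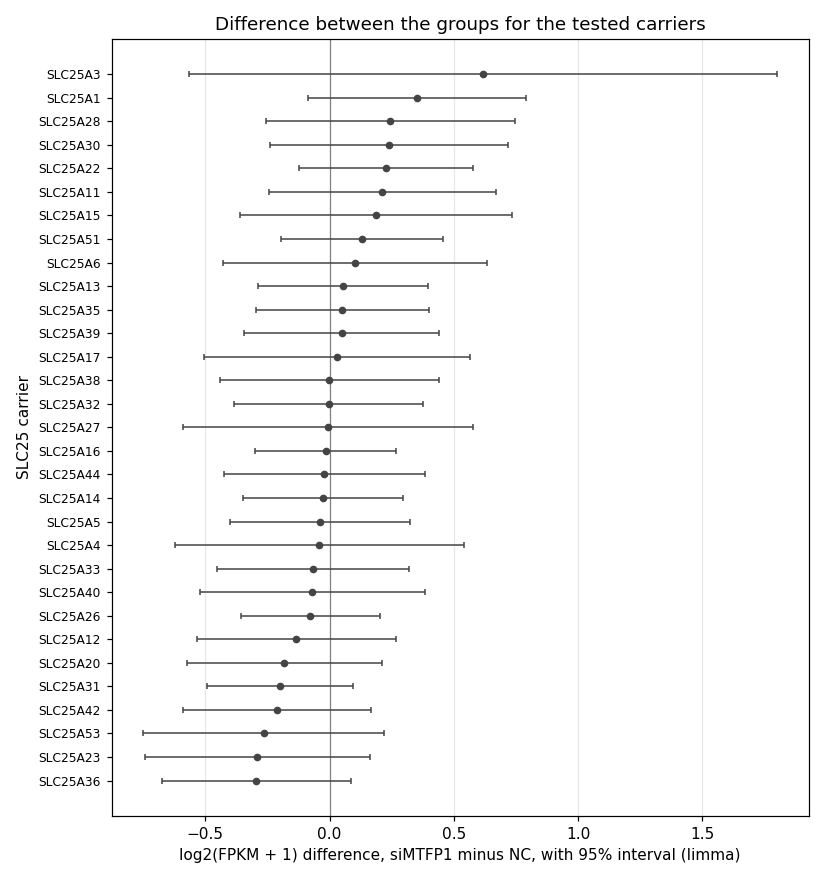
Differences in log2(FPKM + 1), siMTFP1 minus NC, for the 31 tested carriers with their 95% intervals from limma (3 libraries in each group), ordered by size. Every interval includes 0, and the interval of SLC25A3 is the widest, from -0.56 to 1.80.

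Relatives of the family under other symbols were also present. MTCH2, an outer membrane insertase related to the carriers, averaged 58.6 ± 4.20 FPKM in libraries labelled siMTFP1 and 67.2 ± 4.43 FPKM in those labelled NC. The uncoupling proteins UCP2 and UCP3 did not exceed 3.15 FPKM in any library. None of the 4 relatives tested, MTCH1 included, passed an unadjusted p under 0.05 with limma.

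Partners of the carriers were examined as a list of channels, import factors and other transporters, of which 33 were found and 29 tested. In libraries labelled siMTFP1, 19 had a higher and 10 a lower mean log2 level, where 54.2% of all tested genes had a higher one. The median difference was 0.07 for the partners, against 0.02 for all tested genes. By limma 0 passed the adjusted threshold, and 3 had an unadjusted p under 0.05, 2 higher and 1 lower, against the background of 6.53%. SFXN4, a sideroflexin needed for assembly of respiratory complex I, had 218, 333 and 278 FPKM in libraries labelled siMTFP1, against 135, 225 and 73.3 FPKM in those labelled NC. The log2 difference came to 1.05 with an SE of 0.36 (limma adjusted p = 0.720), and siMTFP1 1 lay below NC 2.

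TIMM13, a small chaperone that escorts hydrophobic precursors across the intermembrane space, had 62.9, 63.0 and 59.8 FPKM in libraries labelled siMTFP1, against 52.7, 53.4 and 41.5 FPKM in those labelled NC (log2 difference 0.33, limma adjusted p = 0.764). The groups did not overlap in TIMM13, which was so for 2 of the 29 tested partners and for 11.0% of all tested genes. TIMM22, the channel that inserts the carriers into the inner membrane, averaged 3.98 ± 1.39 FPKM in libraries labelled siMTFP1 and 2.56 ± 0.822 FPKM in those labelled NC. The outer membrane channel VDAC1, through which carrier substrates reach the cytosol, averaged 208 ± 21.2 FPKM in libraries labelled siMTFP1 and 203 ± 9.30 FPKM in those labelled NC; VDAC1 was chosen after its values were seen.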

How the data were processed

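The authors deposited 1 table per library, each giving 17325 genes their FPKM to 2 decimals. Total RNA was extracted with TRIzol and mRNA libraries were made with a BGI kit, per the labels' protocols. The submitters' processing notes list the build ARS-UCD1.2 and, with no role or order, DESeq2 1.4.5, RSEM 1.3.1, HISAT2 2.2.1 and Bowtie2 2.3.4.3. FPKM holds no read totals, so depth is unknown and no counting interval is given.

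Groups were taken from the sample titles. Tests used log2(FPKM + 1) for the 9730 genes whose mean reached 1 FPKM, and limma 3.58.1 in R 4.3.3 was fitted to all of them (eBayes with trend, two-sided, group as the only term), with Benjamini-Hochberg adjustment over all tested genes. Fold changes on this scale understate changes of low genes. The test was tested on simulated data first. Tables were made with Python 3.11.15 and pandas 2.3.3. Nothing in the labels says that replicates are separate cultures or animals, so p-values reflect only how these samples varied, which may be technical.

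By gene ID all 43 carriers were found in a RefSeq table of assembly ARS-UCD2.0; it served only for names, neighbours and overlaps. Of 48 SLC25 symbols in the class lists, 5 were not analysed here, and the values of 1 carrier and 1 partner gene are not reported here. Carriers were named where they are translocases or SLC25A3, among the 10 highest by mean, among the 10 smallest p, without overlap between groups, or the 3 on each side of the filter; others are given with their class. Members and lists were chosen with earlier results of these data known. Alternatives were other pseudocounts, filters and scalings, a replicate block, array weights and leaving out each library.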

Additional observations from a re-analysis of the deposited data

How the results depend on the processing

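Over 16 alternative settings 0 carriers passed the adjusted threshold, and the smallest limma adjusted p of any carrier was 0.384. The 5 most abundant carriers were the same 5 with equal sums, with median-ratio scaling and without any 1 library. At an unadjusted p under 0.05 there was 1 carrier with no filter and 1 with array weights (SLC25A1), and 0 to 1 when a library was left out. The tested carriers numbered 38 with a filter of 0.1, 43 with no filter and 23 with a filter of 5. Of all genes, 2 passed the adjusted threshold with a filter of 5 and 2 after scaling libraries to equal sums, and 0 to 2 when a library was left out. Partners at an unadjusted p under 0.05 numbered 1 with equal sums and 5 with array weights, and 0 to 4 when a library was left out.

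Of the 20 named carriers, 13 kept their direction in every setting in which they were tested, which for 6 of them leaves out the filter of 5. Without 1 library their differences ranged from 0.23 to 0.52 for SLC25A1, 0.089 to 1.09 for SLC25A3, 0.15 to 0.33 for SLC25A22, 0.12 to 0.47 for SLC25A28, 0.064 to 0.38 for SLC25A30, 0.039 to 0.20 for SLC25A51, -0.33 to -0.066 for SLC25A20, -0.42 to -0.15 for SLC25A23, -0.14 to -0.044 for SLC25A26, -0.26 to -0.13 for SLC25A31, -0.43 to -0.18 for SLC25A36, -0.30 to -0.15 for SLC25A42 and -0.40 to -0.054 for SLC25A53. With array weights the difference of SLC25A17 turned to -0.039 and that of SLC25A4 to 0.020. When a library was left out the log2 difference ranged from -0.15 to 0.26 for SLC25A17, -0.30 to 0.23 for SLC25A4, -0.12 to 0.11 for SLC25A5, -0.22 to 0.059 for SLC25A33, -0.075 to 0.032 for SLC25A16, -0.13 to 0.27 for SLC25A6 and -0.11 to 0.34 for SLC25A15. For the array weights the cause was not tested. The labels do not say whether the replicate numbers pair the libraries. Deviations of same-numbered libraries from their group means correlated at 0.03, -0.16 and 0.07 across genes. Those of differently numbered libraries correlated at -0.26 to 0.23. Deviations within a group are bound to cancel, so these correlations cannot decide whether the libraries were paired. With the replicate number as a block, 0 carriers and 0 genes passed the adjusted threshold and 2 partners had an unadjusted p under 0.05. Depth is unknown, so levels below 1 FPKM are the least certain.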
